A study of Mus musculus with 3 samples.

Results

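Plasma cells of the mouse liver were described here by library and by the class of antibody they made. Plasma cells are B cells that have turned into secretors of antibody, and they give much of their mRNA to immunoglobulin chains and to the machinery of the endoplasmic reticulum (ER) that folds and exports them. The class of an antibody is set by its heavy chain constant gene, of which Ighm gives IgM, Igha gives IgA and the Ighg genes give IgG. IgA plasma cells are best known from mucosal tissue such as the gut, and IgM is the class made before a cell switches. The members were chosen on their own measured values. A cell was a plasma cell if it held at least 10 molecules (UMIs) of Jchain, Mzb1, Derl3, Sdc1 and Tnfrsf17 together, with at least 1 of Derl3, Sdc1 or Tnfrsf17. It also had 200 to 4000 genes and at most 25% mitochondrial UMIs, at most 4 UMIs of the Kupffer cell genes Clec4f and Vsig4, and none of Siglech (plasmacytoid dendritic cells) or Cd3e (T cells). This rule found 78 plasma cells among 42971 cells that passed the filter on genes and mitochondrial share, of 52335 cells in all.

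The cells were liver non-parenchymal cells of C57BL/6J mice, captured by BD Rhapsody and sequenced as whole transcriptomes in 2 libraries. The first, called the NCD library here, was assigned by elimination to the sample titled MCD, and its header names it APAP0h. In the study MCD stands for a methionine-choline deficient diet, so the title names another diet than the normal chow (NCD) used here. The deposited table is named for wild-type (WT) mice. Their normal chow diet is taken from the study's description, not from the labels, and nothing in the values states a diet. The second, the HFHC pool, mixes cells of WT and Chi3l1-/- mice (written Chil1-/- in the labels) on a high-fat, high-cholesterol (HFHC) diet, and no genotype is known for a cell of it. A tag library that belongs to the pool was not analysed here. With 1 library per diet no test was possible, and diet, capture, library and mix of genotypes cannot be told apart. Intervals are exact 95% intervals for counting error only, since cells of 1 library are not replicates of a diet.

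The NCD library gave 15 plasma cells of 23346 kept cells and the HFHC pool 63 of 19625. The plasma cells held more UMIs than other lymphocytes and were deeper in the pool. Their median was 7326 UMIs (3809 to 11190) in the NCD library against 11730 (2359 to 21704) in the pool, with a median of 1695 and 2277 genes. Outside the immunoglobulin loci the medians were 3769 and 6825 UMIs for plasma cells, 1399 and 2548 for B cells, and 2125 and 3593 for T cells. Their mitochondrial share was like in both libraries, at a median of 4.94% and 5.48%. Scrublet, a caller of doublets, called 8.42% of kept cells in the NCD library against 1.99% in the pool, and 0 of the plasma cells. The 2 libraries shared 507 barcodes among kept cells, and 2 plasma cells of the pool had a barcode that the NCD library also held, while 0 barcodes were plasma cells in both.

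Few cells lay at the limit of the rule. In the NCD library the lowest members held 71, 72 and 85 UMIs of the 5 genes, and the highest cells that failed on the number of UMIs alone held 8, 4 and 3. In the pool the lowest members held 10, 11 and 22, and the highest below the limit 8, 7 and 5. Over all members the range was 71 to 440 UMIs (median 165) in the NCD library against 10 to 1235 (median 344) in the pool, where 5 of 63 cells were under 60. The requirement of a UMI of Derl3, Sdc1 or Tnfrsf17 left out 9 further cells of the pool with 10 to 14 UMIs, 7 with 15 to 49 and 1 with 100 or more, and in the NCD library 1 with 50 to 99 and 1 with 100 or more.

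Plasma cells were a larger share of the cells in the HFHC pool, with every denominator used. They made up 0.0643% of kept cells (interval 0.0360 to 0.106) in the NCD library against 0.321% (0.247 to 0.411) in the pool. Of plasma cells and B cells together they were 15 of 936, or 1.60% (0.900 to 2.63), against 63 of 791, or 7.96% (6.17 to 10.1), and with a mitochondrial limit of 10% these were 3.78% and 16.4%. Of plasma cells and T cells they were 0.633% (0.355 to 1.04) against 2.49% (1.92 to 3.18). Among kept cells with under 20 UMIs of hepatocyte markers they were 14 of 16912, or 0.0828% (0.0453 to 0.139), against 51 of 8910, or 0.572% (0.426 to 0.752). None of these pairs of intervals overlapped. B cells were 3.95% of kept cells in the NCD library against 3.71% in the pool, and these intervals (3.70 to 4.20 and 3.45 to 3.98) overlapped. B cells here had at least 3 UMIs of Cd79a, Cd79b and Ms4a1 with at least 1 of Ms4a1, and at most 4 of the 5 plasma cell genes.

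**Figure D1:**
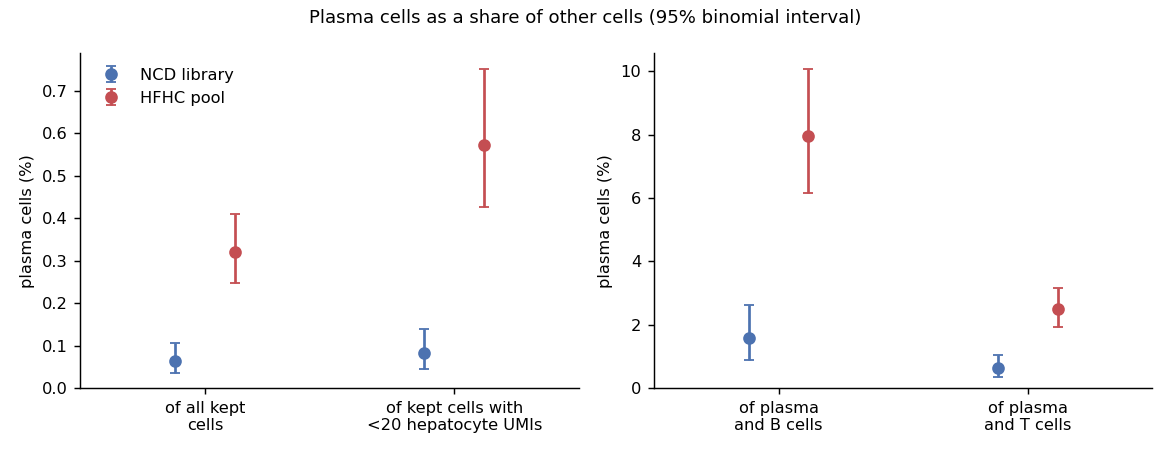
Plasma cells as a percentage of kept cells, of kept cells with under 20 hepatocyte-marker UMIs, of plasma and B cells, and of plasma and T cells in the NCD library and the HFHC pool, with exact binomial 95% intervals for counting error. The pool lies above the NCD library for each denominator, for example at 7.96% against 1.60% of plasma and B cells.

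The libraries held plasma cells of different antibody classes. In the NCD library 13 of 15 plasma cells were IgA (86.7%, interval 59.5 to 98.3) and 2 were IgM (13.3%, 1.66 to 40.5). In the HFHC pool 53 of 63 were IgM (84.1%, 72.7 to 92.1), 5 were IgA (7.94%, 2.63 to 17.6), 3 were IgG2c and 2 were IgG2b. In number, IgA cells were 13 and 5, whereas IgM cells were 2 and 53. No cell of the NCD library was IgG, and 0 of 15, taken as at most 3 counts, allows a share of up to 20% (exact upper limit 21.8%). IgG1, IgG3 and IgE were found in 0 of 63 cells of the pool, which by the same count allows up to 4.76% (exact upper limit 5.69%). A cell was given a class if it had at least 10 heavy chain constant UMIs with at least 70% of 1 class, and each of the 78 cells met this. The rule counted Jchain, whose product joins units of secreted IgM and IgA, and whether this favoured cells of these classes was not tested. The 5 IgG cells held 473, 107, 74, 426 and 125 Jchain UMIs.

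Each plasma cell was nearly pure in its class. The leading class held at least 96.9% of a cell's heavy chain UMIs in the NCD library against at least 89.96% in the pool, with a median of 100% in both. Heavy chain UMIs ranged from 149 to 1361 per cell (median 450) in the NCD library but from 57 to 3823 (median 1341) in the pool. The 13 IgA cells of the NCD library held 1361, 1266, 927, 792, 521, 509, 498, 450, 444, 432, 429, 222 and 149 heavy chain UMIs. The 5 IgA cells of the pool held 3104, 2119, 1599, 590 and 393. The IgG2b cells held 3823 and 907, and the IgG2c cells 2670, 1684 and 1509.

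**Figure D2:**
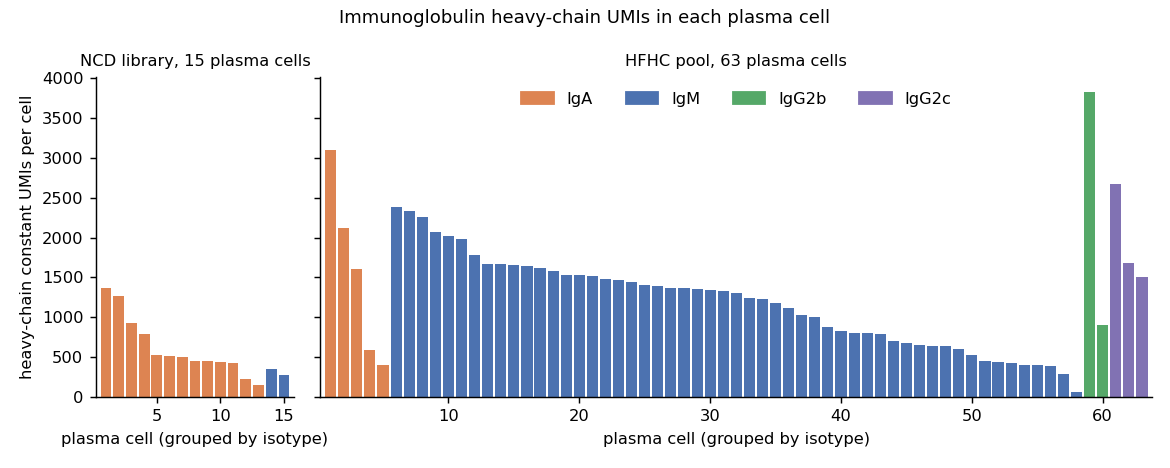
Heavy chain UMIs of each plasma cell, grouped by class in each library, 1 bar per cell. The NCD library holds 13 IgA and 2 IgM cells, and the HFHC pool 53 IgM, 5 IgA and 5 IgG cells.

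The constant genes lie in a row on chromosome 12, on the minus strand of GRCm38, with Ighm at chr12:113418558-113422730 first in the direction of transcription and Igha at chr12:113254830-113260236 last. Between them lie Ighd, at chr12:113406604-113416324, Ighg2b, at chr12:113302965-113307933, and Ighg2c, at chr12:113285325-113288932. Igha had 7951 UMIs in the 15 plasma cells of the NCD library but 7835 in the 63 of the pool. Ighm had 637 and 62455 UMIs, Ighg2c 0 and 5858, and Ighg2b 10 and 4753. Ighd, which naive B cells carry along with Ighm, had 0 and 3 UMIs in plasma cells against a mean of 3.29 and 6.28 UMIs in each B cell. Immunoglobulin RNA outside plasma cells was far lower per cell. B cells had a mean of 10.2 Ighm UMIs in the NCD library, 16.3 in the pool, and T cells, which should not make antibody, 0.521 and 1.13. For Igha the T cell means were 0.0144 and 0.0126.

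Immunoglobulin transcripts of the heavy, kappa and lambda loci took 33.0% of all UMIs of plasma cells in the NCD library against 37.5% in the HFHC pool. Per cell the share ranged from 7.25% to 57.8% (median 38.6%) and from 3.01% to 68.4% (median 41.2%), so that the libraries overlapped over most of their range. In B cells it was 2.63% and 2.40%. Jchain, which joins the units of secreted IgM and IgA and is a gene of the rule, is not counted in this share.

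Kappa was the usual light chain. Among NCD cells 12 were kappa and 2 lambda, and 1 IgA cell with 423 Igkc and 764 lambda constant UMIs had neither at 70%. In the pool 61 cells were kappa and 2 lambda. A variable (V) gene was called where at least 3 V gene UMIs were found with at least 70% of 1 gene. A heavy V gene was called in 13 cells of the NCD library (11 different genes) and in 54 of the pool (27 different genes). Both chains had a V gene in 8 cells with 7 different pairs, and in 48 cells with 36 different pairs. The most often called heavy V genes of the pool were Ighv1-53 in 9 cells, Ighv1-26 and Ighv14-4 in 5 each and Ighv1-55 in 3, and the most frequent light V gene was Igkv3-2, in 12 cells.

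In 1 kappa cell of the pool the called light V gene was a lambda gene, Iglv1, so that the calls can disagree. Some pairs of V genes came up in more than 1 cell. In the pool 19 of 48 cells fell into 7 such pairs. Ighv1-53 with Igkv3-2 was found in 4 cells, 3 of them IgM and 1 IgA, and Ighv14-4 with Igkv6-20 in 4 IgM cells. Ighv1-26 with Igkv4-91 was found in 3 IgM cells. For the NCD library, Ighv1-26 with Igkv1-110 was found in 2 IgA cells. The libraries had 0 pairs in common. These V genes were assigned from the reads of a whole-transcriptome library, many are near-identical copies of each other, and a shared pair does not show that cells descend from 1 clone.

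The identity of the cells was read from genes that the rule did not use. Values are counts per 1000000 UMIs outside the immunoglobulin loci (CPM), summed over cells. Xbp1, the transcription factor that expands the secretory pathway, was at 2060 in plasma cells of the NCD library, 2336 in those of the pool, against 68.7 and 70.9 in B cells. It had a UMI in 15 of 15 and 62 of 63 plasma cells, and after each cell was thinned to 1000 UMIs outside the immunoglobulin loci in 80% and 84.1%, against 6.70% and 4.83% of B cells. T cells carried an Xbp1 UMI in 19.8% and 21.4% of cells before thinning. Prdm1, which encodes Blimp-1, the repressor that ends the B cell program, was at 397 and 348 against 4.12 and 6.03 in B cells, and Irf4 at 809 and 397 against 53.6 and 202.5. Prdm1 had a UMI in 13 of 15 and 43 of 63 plasma cells, and after thinning in 40% and 25.4% against 0.547% and 0.552% of B cells. Of the 9 transcription factors and cofactors listed for plasma cells, 5 had enough UMIs in the NCD library. Of these, 2 (Xbp1 and Irf4) were at least 2-fold higher than in B cells. For the pool it was 4 of 8 (Prdm1, Xbp1, Creb3l2 and Ell2). Among all genes tested, 12.1% and 10.8% were higher. Prdm1 had enough UMIs for the pool's count through its plasma cells (163 UMIs against 13 in B cells), which favours its call. The CPM values of Xbp1 and Prdm1 and the shares of cells that held them do not rest on that limit. They matched the name plasma cells in both libraries, with exceptions among single cells. One was an IgM cell of the pool that had 0 Xbp1 UMIs, an immunoglobulin share of 3.01%, 201 neutrophil-marker UMIs and 273 hepatocyte-marker UMIs. Another IgM cell of the pool had 0 UMIs of Jchain, Derl3, Tnfrsf17 and Prdm1 and 1 of Xbp1, beside 3 of Ms4a1 and 8 of Cd79a.

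Plasma cells were next compared with B cells of the same library, gene by gene, to see what sets antibody secretors apart from the cells they come from. The ratio is the log2 ratio of these CPM values after 1 UMI was added, for genes whose UMIs in plasma and B cells summed to 100 or more. At least 2-fold is called higher or lower. In the NCD library 331 of 2732 genes (12.1%) were higher and 604 (22.1%) lower in plasma cells, and the median ratio of all genes was -0.14. In the HFHC pool 479 of 4428 (10.8%) were higher and 950 (21.5%) lower, with a median of -0.24. Scaled to all UMIs, immunoglobulin included, the counts were 156 higher and 1026 lower in the NCD library and 250 higher and 1990 lower in the pool. With a minimum of 20 UMIs the balance turned in the NCD library, to 1704 higher and 1037 lower of 7605 genes, and was 1211 and 1695 of 9125 in the pool. At this minimum the 1 UMI added raises the ratio of low genes in the smaller group of plasma cells. These counts therefore cannot decide the balance. A gene often reached 100 UMIs through the larger group of B cells, and the counts for lists are descriptions of those members that reached it. In both libraries some list members reached it only with the UMIs of plasma cells, where they were high, and the limit favours their call. Examples in the pool are Prdm1 (163 UMIs against 13 in B cells), Prdx4 (187 against 24) and Creld2 (894 against 74). In the NCD library they are Creld2 (83 against 45), Sdf2l1 (68 against 58) and Lman1 (72 against 69).

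Genes of the secretory pathway were higher in plasma cells at each of its steps. For entry into the ER (translocon, signal recognition and signal peptidase), 17 of 19 tested of 24 listed genes were higher in the NCD library and 21 of 23 in the pool, with median ratios of 2.46 and 2.75. For chaperones and folding enzymes it was 16 of 17 tested of 25 and 21 of 22 (medians 3.37 and 3.40). For N-glycosylation it was 8 of 9 tested of 17 and 11 of 13 (2.23 and 2.46). For ER-associated degradation, which clears misfolded protein, it was 9 of 10 tested of 14 and 12 of 14 (2.38 and 2.64). For transport from ER to Golgi it was 10 of 10 tested of 21 and 19 of 19 (2.14 and 2.13). None of the 5 lists had a member that was lower. Scaled to all UMIs, 4 of the higher genes fell under 2-fold in the NCD library (Arf4, Copb2, Dad1 and Ganab) but 11 in the pool, where 5 were of transport (Copb2, Sar1a, Sar1b, Sec23b and Sec31a). Against 12.1% and 10.8% of all genes, these shares were higher in both libraries. The minimum of UMIs favours members that reached it only with plasma cells, so these shares describe the tested members only.

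**Figure D3:**
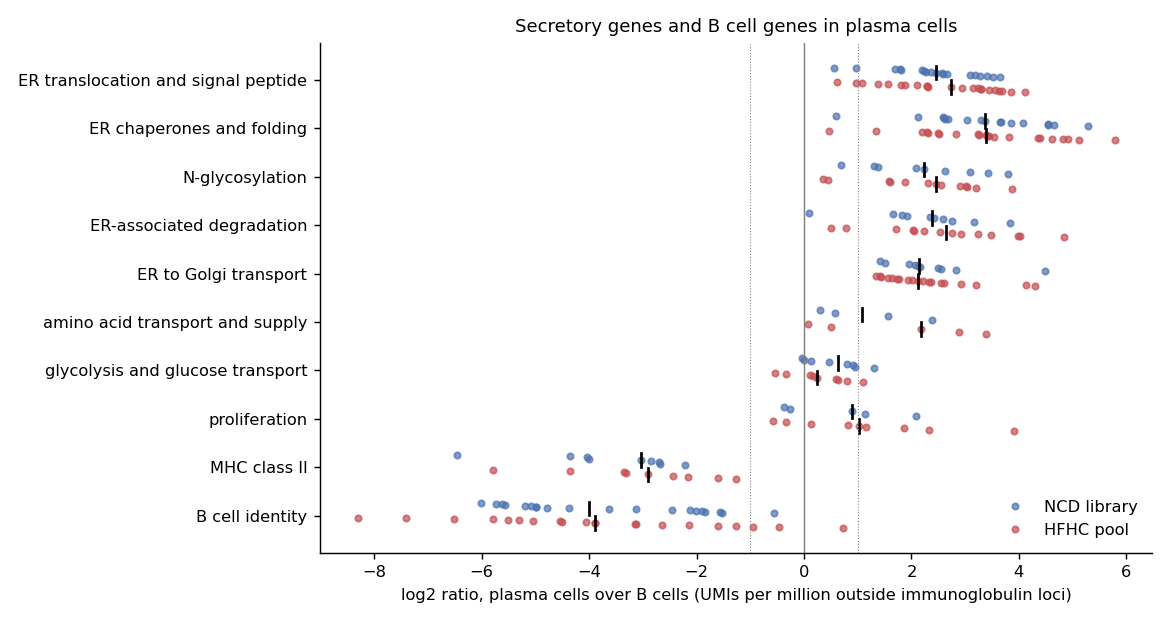
Log2 ratio of plasma cells over B cells for each tested gene of the lists, shown by library, with a bar at the median of each list. The secretory lists have medians between 2.13 and 3.40, and B cell identity and MHC class II genes have medians between -4.00 and -2.91.

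Individual genes of these steps showed the size of the difference. Hspa5 (BiP), the main Hsp70 chaperone of the ER, was at 5062 CPM (interval 4542 to 5627) in plasma cells and 401.9 in B cells of the NCD library, and at 6138 (5916 to 6367) and 637.7 in the pool, with ratios of 3.66 and 3.27. Hsp90b1 (GRP94), its Hsp90 partner, was at 15070 and 648.6, and at 14709 and 599.7, with ratios of 4.54 and 4.62. It had a UMI in each of the 78 plasma cells. Creld2, an ER protein induced by ER stress, had ratios of 5.29 and 5.78, the first being the highest in its library once both groups had to hold at least 10 UMIs. Sdf2l1, a partner of BiP, was at 4.65 and 4.92.

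Among genes of entry and glycosylation, Sec11c, a signal peptidase subunit, had ratios of 3.52 and 3.55, and Ssr4, of the translocon-associated complex, 3.09 and 4.12. Rpn1, an oligosaccharyltransferase subunit, had 3.80 and 3.86. In degradation and export, Edem1, which hands misfolded glycoproteins on, had 3.84 and 4.83, and Lman1, a cargo receptor between ER and Golgi, 4.48 and 4.14. Ssr4 and Edem1 were about 2-fold further above B cells in the pool, and the others differed less. Signalling genes of the unfolded protein response were less uniform, with 3 of 3 tested of 11 higher in the NCD library (Atf6, Atf6b and Atf4) and 2 of 6 in the pool (Atf6 and Atf6b), against 12.1% and 10.8% of all genes. Scaled to all UMIs, Atf4 in the NCD library and Atf6b in the pool fell under 2-fold.

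The promoters of some of these genes carry the ER stress response element (ERSE), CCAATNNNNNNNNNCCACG, or ERSE-II, ATTGGNCCACG. These are known binding sequences of ATF6 and, in part, of XBP1. Both were searched on both strands of RefSeq promoters of 300 bases (GRCm38.p6), and they share the letters CCACG. ERSE was found in 37 of 27025 promoters (0.137%) and ERSE-II in 12 (0.0444%). Of the 21 chaperone genes with a promoter in the table, 7 (33.3%) had an ERSE, namely Hspa5, Hsp90b1, Calr, Canx, Dnajc3, Pdia6 and Creld2, and Dnajb11 had an ERSE-II. Outside that list, ERSE was found for Syvn1 and for Derl3, a gene of the rule, and ERSE-II for Krtcap2 and Herpud1. The lists of ER entry (17 promoters), ER to Golgi transport (18), B cell identity (16), MHC class II (7) and glycolysis (15) had 0 of either. In plasma cells over B cells, the ratios were 2.68 and 2.28 for Calr, 2.12 and 1.34 for Canx, 3.66 and 3.53 for Dnajc3, 3.30 and 3.38 for Pdia6, and 2.41 and 3.48 for Herpud1, in the NCD library and the pool. The first 2 chaperone promoters, the one of Derl3 and the ERSE-II promoter of Herpud1, which encodes an ER membrane protein of the degradation pathway, are shown as examples of such matches, 5′ to 3′ in the direction of the gene, with the fixed letters of each match in capitals. They lie at chr2:34771840-34772139, chr10:75893148-75893447 and chr8:94386179-94386478 on the plus strand and at chr10:86705395-86705694 on the minus strand.
Hspa5: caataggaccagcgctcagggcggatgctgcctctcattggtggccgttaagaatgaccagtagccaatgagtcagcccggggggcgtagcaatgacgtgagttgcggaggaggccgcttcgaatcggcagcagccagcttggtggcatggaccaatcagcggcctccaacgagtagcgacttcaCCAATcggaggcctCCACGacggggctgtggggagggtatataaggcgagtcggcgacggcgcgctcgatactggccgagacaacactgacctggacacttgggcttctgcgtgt
Hsp90b1: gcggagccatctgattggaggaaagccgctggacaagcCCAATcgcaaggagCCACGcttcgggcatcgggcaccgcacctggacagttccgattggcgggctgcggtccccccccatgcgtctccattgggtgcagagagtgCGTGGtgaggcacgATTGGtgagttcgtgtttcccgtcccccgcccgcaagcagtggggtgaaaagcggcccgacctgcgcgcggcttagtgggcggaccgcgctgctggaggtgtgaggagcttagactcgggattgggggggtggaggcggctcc
Derl3: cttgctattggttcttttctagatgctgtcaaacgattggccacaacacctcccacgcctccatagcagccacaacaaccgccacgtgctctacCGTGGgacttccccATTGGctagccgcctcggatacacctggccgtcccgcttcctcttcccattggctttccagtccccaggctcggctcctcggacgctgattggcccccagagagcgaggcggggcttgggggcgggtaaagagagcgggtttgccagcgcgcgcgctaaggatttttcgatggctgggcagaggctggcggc
Herpud1: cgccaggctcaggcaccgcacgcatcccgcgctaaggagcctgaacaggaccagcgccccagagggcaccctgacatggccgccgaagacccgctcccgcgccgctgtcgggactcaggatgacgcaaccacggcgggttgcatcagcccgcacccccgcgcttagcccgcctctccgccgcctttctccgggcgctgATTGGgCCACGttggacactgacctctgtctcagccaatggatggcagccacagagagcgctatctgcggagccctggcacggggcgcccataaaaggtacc
The promoter of Hsp90b1 holds a match on each strand, that of Derl3 a match on the opposite strand, and those of Hspa5 and Herpud1 a match on the strand of the gene. A match of letters is a description and does not show that a factor bound there.

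B cell genes were low in plasma cells. Of 21 listed genes of B cell identity, 19 of 20 tested were lower in the NCD library and 18 of 21 in the pool, against 22.1% and 21.5% of all genes, with medians of -4.00 and -3.90. Ms4a1, Cd79a and Cd79b of this list were used to choose the B cells, so that their direction is no finding. Pax5, the factor that holds B cells to their identity, had 0 UMIs in the 15 and 0 in the 63 plasma cells against 1388 and 1456 in B cells. Cd79a, which carries the signal of the B cell receptor, was at 1089 and 1508 CPM in plasma cells against 4778 and 4601 in B cells. Pou2af1, a coactivator that both cell types use, did not reach 2-fold, with ratios of 0.71 and 0.93, but passed it after thinning in the NCD library (1.23) and without the cells with neutrophil or hepatocyte UMIs in the pool (1.05).

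All 9 listed and tested genes of MHC class II antigen presentation were lower in both libraries, against 22.1% and 21.5% of all genes. Their medians were -3.04 and -2.91. H2-Aa, the alpha chain of I-A, had ratios of -4.35 and -2.91, and the first was the lowest in that library once both groups had to hold at least 10 UMIs. H2-DMb2, whose product helps to load peptides, had 0 UMIs in plasma cells of the NCD library against 1888 in B cells. Such genes met the minimum of UMIs through the B cells, where they were high, which favours a lower call. Cd74, the invariant chain, had ratios of -2.21 and -1.27. Per 10000 UMIs outside the immunoglobulin loci, class II genes were at a median of 39.8 (16.1 to 66.1) over plasma cells of the NCD library but 62.2 (0 to 434) over those of the pool, against 295 and 285 in B cells and 2.07 and 2.69 in T cells. Single B cells ranged from 9.08 to 817 and from 9.67 to 554, so that plasma cells of both libraries overlapped with them.

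The genes with the highest ratio in the pool also included secretory and nuclear genes outside the lists. Slpi, a secreted inhibitor of leukocyte proteases, had 769 UMIs in 38 of 63 cells and a ratio of 6.75. Of these UMIs 333 were in 3 IgG cells. It had only 5 UMIs in 3 of 15 cells of the NCD library. Eaf2, an elongation factor partner, had a ratio of 6.17, and Tent5c, a poly(A) polymerase that stabilises mRNAs of secreted proteins, 5.92. Pycard, the inflammasome adaptor ASC, was at 5.04 in the first library and 2.64 in the second. Bank1, a B cell scaffold protein, was among the lowest genes of the pool that had at least 10 UMIs in each group, at -4.07.

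Of the 24 homing and adhesion genes, 16 and 17 were tested. In the NCD library 6 were higher in plasma cells than in B cells (Slamf7, Ly6c2, Cd44, Itgb7, Itga4 and Selplg) and 4 lower, among them Ly6d, S1pr1 and Cxcr4. In the pool 6 were higher (Ly6c2, Slamf7, Cd44, Selplg, Ly6a and Itgal) and 5 lower, among them S1pr4, Cxcr4, Ly6d and S1pr1. Over all genes 12.1% and 10.8% were higher and 22.1% and 21.5% lower. Scaled to all UMIs, Itgb7, Itga4 and Selplg fell under 2-fold in the NCD library and Selplg, Ly6a and Itgal in the pool. Itgb7 also fell under 2-fold in the NCD library after thinning. S1pr1, the receptor by which lymphocytes leave lymphoid tissue, had ratios of -1.13 and -3.66. The value of the NCD library rested on 8 UMIs and was 0.43 after thinning. Slamf7, a surface receptor typical of plasma cells, had 3.01 and 3.70.

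Homing receptors were not spread evenly over the classes. Ccr10, the receptor for the epithelial chemokines CCL27 and CCL28, had 19 UMIs in 7 of 13 IgA cells of the NCD library and 11 UMIs in 3 of 5 IgA cells of the HFHC pool, which held 3, 0, 5, 0 and 3. This was 308 and 272 CPM. It had 0 UMIs in the 53 IgM cells and the 5 IgG cells of the pool and in the 2 IgM cells of the NCD library. B cells had 0 UMIs in both libraries, and T cells had one in 0.340% and 0.325% of cells. IgM cells of the pool had a median of 6825 UMIs outside the immunoglobulin loci, above the 3769 of the IgA cells of the NCD library. Thinned to 1000 UMIs, Ccr10 was found in 4 of 13 and 1 of 5 IgA cells.

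Ccr9, the receptor for the small-intestinal chemokine CCL25, had 13 UMIs in 7 of 13 IgA cells of the NCD library (211 CPM). In the pool it had 0 UMIs in the 5 IgA cells and the 53 IgM cells and was found in 1 IgG2b cell. It was found in 0.543% and 0.549% of B cells and in 18.6% and 7.59% of T cells. After thinning it was in 3 of 13 IgA cells of the NCD library. With 5 IgA cells in the pool, a lower share than in the NCD library was not detectable.

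The integrin genes that pair as alpha4beta7, the gut homing integrin, were higher in IgA than in IgM cells in CPM. Itgb7 was at 567 CPM in IgA cells of the NCD library, 371 in IgA cells of the pool, 125 in IgM cells and 87.5 in IgG cells of the pool. After thinning it was found in 2 of 13, 2 of 5, 4 of 53 and 1 of 5 cells. Itga4 was at 1296, 916, 384 and 583. Cxcr3, a receptor for interferon-induced chemokines, had 0 UMIs in the 15 plasma cells of the NCD library and in the IgA cells of the pool, against 58.4 CPM in IgM cells (11 of 53 cells) and 175 in IgG cells (2 of 5) of the pool, and after thinning it was found in 2 of 53 and 1 of 5. One IgM cell held 7 of the UMIs and one IgG cell 5, and a difference between classes was not detectable with 5 IgA cells. T cells carried Itgb7 in 48.1% and Cxcr3 in 35.8% of cells of the NCD library.

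**Figure D4:**
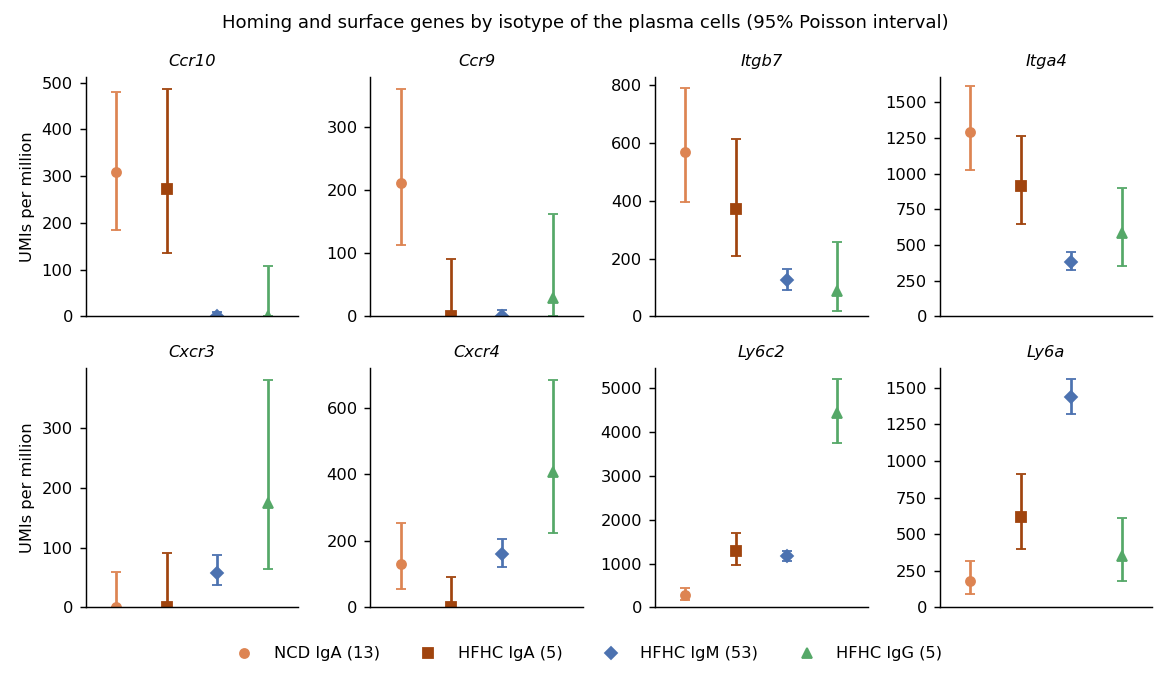
CPM, outside the immunoglobulin loci, of homing genes in plasma cells by class and library, with exact Poisson 95% intervals for counting error. Ccr10 was at 308 and 272 in the IgA cells of the NCD library and the HFHC pool and had 0 UMIs in IgM and IgG cells, and Ccr9 was at 211 in IgA cells of the NCD library.

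Ly6c2 and Ly6a, which encode small surface proteins induced by interferon in lymphocytes, varied between cells. Ly6c2 was at 275 CPM in IgA cells of the NCD library, and at 1288, 1169 and 4433 in IgA, IgM and IgG cells of the pool. The IgG value rested on 2 cells, since the 5 cells held 73, 2, 76, 0 and 1 UMIs, and the IgA value of the pool on 1, since its cells held 5, 1, 40, 5 and 1. Ly6a was at 178 in IgA cells of the NCD library and at 619, 1436 and 350 in IgA, IgM and IgG cells of the pool. The 5 IgA cells of the pool held 19, 0, 2, 4 and 0 Ly6a UMIs, and the 2 IgM cells of the NCD library 11 of its 22. B cells were at 431 and 418 for Ly6a, so that it was higher in IgM cells of the pool than in B cells of either library.

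Some plasma cells carried transcripts of cell division. Of 11 genes of the cell cycle, at least 5 UMIs were found in 3 of 15 cells of the NCD library (20%, interval 4.33 to 48.1) and in 17 of 63 of the pool (27.0%, 16.6 to 39.7). The 3 were IgA, and the 17 were 15 IgM, 1 IgA and 1 IgG2b. In B cells it was 0.543% and 0.824%, and in T cells 4.33% and 3.16%. The highest cells were IgM cells of the pool with 142, 124 and 78 UMIs. Mki67, which marks dividing cells, was at 515 and 510 CPM in plasma cells against 24.1 and 33.8 in B cells. After thinning it was found in 20% and 28.6% of plasma cells against 1.09% and 0.966% of B cells. Counts of 5 UMIs were reached more easily in deeper cells, and the interval of the NCD library is wide.

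The plasma cells of the HFHC pool were then set against those of the NCD library, which asks whether the cells themselves differed and not only their number. Of 824 genes, 99 (12%) were at least 2-fold higher in the pool and 49 (5.95%) lower, with a median ratio of -0.09. The secretory lists differed little. Of the tested genes, 1 of 19 for ER entry was higher (Ssr4, 1.12), 2 of 21 chaperones were higher (Fkbp2 and Prdx4) and 1 was lower (Sdf2l1, -1.05), and none of 11 for N-glycosylation or of 13 for transport reached 2-fold in either direction. Their medians lay between -0.17 and 0.19. For degradation 1 of 11 was higher (Vcp), with a median of 0.47. Fkbp2 was also higher in the pool in B cells and T cells, and Sdf2l1 also lower in T cells (-1.21). Sdf2l1 was under 2-fold in 4 alternatives (-0.96 to -0.68), Ssr4 in 2 (0.62 and 0.99) and Vcp in 3. Hspa5 had a ratio of 0.27, Hsp90b1 -0.04 and Xbp1 0.17. The 100 UMIs were met mostly through the 63 cells of the pool, which limits the number of lower genes that could be found. With a minimum of 20 UMIs the balance turned, to 467 higher and 586 lower of 4203 genes. At this minimum the 1 UMI added raises low genes in the smaller NCD group, so these counts cannot decide the balance.

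Among genes with at least 10 UMIs in each library, the highest were Jun at 4.25 and Fos at 3.43, which encode the early response factors of AP-1. Ier2, an early response gene with only 1 UMI in NCD plasma cells but 280 in those of the pool, lay above Jun without that limit. The ratio of Jun was 2.69 in B cells and 2.59 in T cells, and that of Fos 2.33 and 2.80. Of 19 genes known to rise during tissue dissociation, 8 of 12 tested were higher (median 1.85), against 12% of all genes. Members such as Jun (2102 UMIs against 15) and Fos (1484 against 19) met the minimum of UMIs through the pool, where they were high. The minimum favours their call, so that 8 of 12 describes only the members that met it. In B cells 9 of 17 were higher, against 242 of all 5445 genes. In T cells it was 13 of 19, against 630 of 9512. Per 10000 UMIs outside the immunoglobulin loci this list was at 54.5 in plasma cells of the NCD library but at 214 in those of the pool, against 57.2 and 131 in B cells. Gm42418 was at 2.99, and it was at 2.35 in B cells and 2.50 in T cells. Rpsa, a ribosomal protein (2.15), Ftl1, the ferritin light chain (2.01), and the translation factors Eef2 (1.92) and Eif5a (1.80) were likewise between 1.48 and 2.31 in B and T cells. These 7 of the 10 leading genes were higher in the pool in all 3 cell types.

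Ly6c2, Ly6a and Alb were the leading genes that were not at least 2-fold higher in B or T cells. Ly6c2 had a ratio of 2.20 in plasma cells and -1.02 in B cells, and Ly6a had 1.93 in plasma cells and -0.05 in B cells. Their values by class are given above. Alb, made by hepatocytes, had a ratio of 2.73. It changed sign, to -1.59 with no filter on cells and to -2.79 with at least 5 UMIs of the rule's genes, each of which adds 1 cell to the 15 of the NCD library. The summed hepatocyte markers were at 8.68 per 10000 UMIs in plasma cells of the NCD library (median 2.23, highest cell 52.1) and 40.0 of the pool (median 4.17, highest cell 374), and at 32.4 and 40.2 in B cells. Of 13 hepatocyte markers 4 were tested and higher in the pool, against 12% of all genes, but they reached the 100 UMIs through the pool. Of these, Serpina1a and Serpina1c changed sign under the same alternatives as Alb, and Fabp1 fell under 2-fold.

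By the same limit of 10 UMIs, the genes that were lowest in the pool were Vim, the intermediate filament of migrating cells, at -2.97, Pycard at -2.85, Myadm, a membrane protein first named in myeloid cells, at -2.59, S100a11 at -2.16 and Klf2, a factor that controls lymphocyte traffic, at -2.08. In B cells their ratios were -0.35, -0.45, -0.34, -1.51 and 0.22. Itgb7 was at -1.87 in plasma cells and -0.17 in B cells, and Hmgb2, a chromatin protein of dividing cells, at -1.68 and -0.42. Without the filter on cells the ratio of Hmgb2 in plasma cells was 0.45. Vim was at 1692 CPM in the NCD library and at 191, 644 and 0 in IgM, IgA and IgG cells of the pool. Pycard was at 1589 in the NCD library and at 109, 1263 and 262.5 in the same classes of the pool, and Myadm at 1545 and at 180, 1114 and 117. For these 3 genes, chosen for their low ratio in a pool made up mostly of IgM cells, the IgA cells of the pool lay nearer to the NCD library than the IgM cells did.

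Restricted to IgA cells, 5 of the pool against 13 of the NCD library, 134 genes had enough UMIs, of which 12 were higher and 9 lower. Vim had a ratio of -1.47, Pycard of -0.42 and Myadm of -0.56, whereas Jun stayed at 4.18 and Fos at 3.49. This comparison was added after the data were seen. Within the pool, IgM cells were set against IgA cells, and of 653 genes 61 were higher and 19 lower in IgM cells. Myadm was at -2.64, Vim at -1.79, Itga4 at -1.28 and Ly6a at 1.16. Glipr1 had the lowest ratio by that limit, -2.68, and was named after its value was seen. Because 3 of the 5 IgA cells carried Vim and 2 carried Myadm, these ratios rest on few cells.

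**Figure D5:**
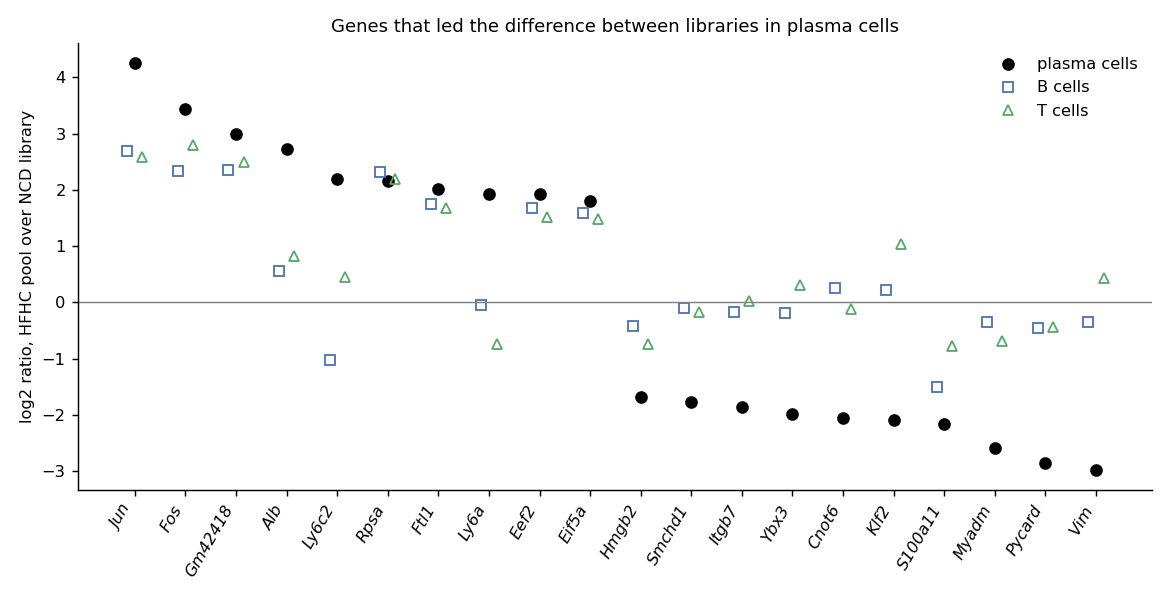
Log2 ratio between the libraries (HFHC pool over NCD) for the genes with the highest and the lowest ratio in plasma cells among those with at least 10 UMIs in each library, with the ratio in B cells and T cells beside it. Jun and Fos were above 2 in all 3 cell types, while Vim was at -2.97, Pycard at -2.85 and Myadm at -2.59 in plasma cells with values between -0.69 and 0.44 in B and T cells.

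Among the classes of the pool, IgG cells had the highest level of ER chaperones. Per 10000 UMIs outside the immunoglobulin loci, the chaperone list was at 792 (interval 762 to 822) in the 5 IgG cells, 442 (422 to 463) in the 5 IgA cells and 371 (365 to 377) in the 53 IgM cells of the pool, and at 373 (358 to 389) in the 13 IgA and 595 (536 to 659) in the 2 IgM cells of the NCD library. These 2 cells were at 276 and 718, and the IgA cells of that library at a median of 353 (161 to 590). Single cells overlapped, with a median of 649 (323 to 1179) in IgG, 344 (144 to 745) in IgA and 306 (24.7 to 1168) in IgM cells. In IgG, IgA and IgM cells of the pool, ER entry was at 169, 154 and 161, N-glycosylation at 69.4, 61.9 and 64.3, degradation at 130, 89.6 and 86.9 and transport to the Golgi at 81.1, 70.6 and 68.1. The intervals of IgA and IgM cells overlapped for ER entry, N-glycosylation, degradation and transport. Those of IgG cells overlapped with both classes for ER entry and N-glycosylation.

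Lists of survival, nutrient supply and regulation gave fewer calls. Of 13 genes of survival receptors and the BCL2 family, 9 were tested in the NCD library. There Bak1 and Tnfrsf13b (TACI) were higher and Cd38 and Tnfrsf13c (BAFF receptor) lower. Of 7 tested for the pool, Bcl2 and Cd38 were lower. Among all genes tested, 12.1% and 10.8% were higher, and 22.1% and 21.5% lower. These few calls do not set the list apart from such shares. Bak1 and Tnfrsf13b also fell under 2-fold per all UMIs, with no filter on cells and with 5 UMIs of the rule's genes. Mcl1, a survival factor of plasma cells, had ratios of 0.33 and -0.05. Of 16 genes of glycolysis and glucose transport, 1 of 8 and 1 of 9 tested was higher, against 12.1% and 10.8% of all genes. This was Pgk1, at 1.31 in the NCD library and just past 2-fold in the pool, which fell under 2-fold in both with a mitochondrial limit of 10% (0.96 and 0.63) and per all UMIs (0.77 and 0.45). Of 10 genes of amino acid supply, 2 of 4 tested were higher in the NCD library and 3 of 5 in the pool, where Slc3a2, the heavy chain of amino acid transporters, had 3.39 and Phgdh, the first enzyme of serine synthesis, 2.88. Il10, made by regulatory plasma cells, had 0 UMIs in 15 cells and was found in 3 of 63 cells, all IgM, 1 of them with 8 of the 10 UMIs. Chil1, which encodes Chi3l1 and lies at chr1:134182176-134190181 on the plus strand, had 1 UMI in 15 and 2 UMIs in 63 plasma cells, too few for a comparison.

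Markers of other cell types were set against their level in B cells, per 10000 UMIs outside the immunoglobulin loci. T cell markers were at 0.736 and 1.41 in plasma cells of the NCD library and the pool against 3.57 and 3.93 in B cells, and Kupffer cell markers at 2.35 and 1.64 against 3.35 and 1.53. Neutrophil markers were at 4.41 and 4.46 against 14.8 and 2.21. Endothelial markers were at 9.71 and 4.72 against 7.96 and 4.45, and of these Clec4g was at least 2-fold higher and Pecam1 at least 2-fold lower in plasma cells of both libraries. Markers of plasmacytoid dendritic cells were at 12.4 and 7.20 against 4.12 and 3.58. Of these lists only the dendritic markers were above B cells by more than counting error in both libraries. Siglech of this list was held at 0 by the choice of cells. Tcf4 of this list was at least 2-fold higher in the NCD library, but not when scaled to all UMIs. The sum does not show that plasma cells held RNA of dendritic cells. In the pool 1 cell held 201 of the 209 neutrophil-marker UMIs. The part of these markers in the results was not tested apart from that of the hepatocyte markers. In the pool 9 cells held at least 50 hepatocyte-marker UMIs, and 1 of these also held the neutrophil markers given above. Of the NCD cells, 1 held 21 neutrophil-marker UMIs. Without these cells, 14 and 54 plasma cells remained, and the pool over the NCD library then gave 70 higher and 29 lower of 684 genes.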

How the data were processed

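Single liver non-parenchymal cells were captured with BD Rhapsody and sequenced as whole transcriptomes. Per the file headers, the deposited values are counts of molecules (UMIs) per gene and cell after the authors' error correction, made with BD Rhapsody WTA Analysis Pipeline 1.10.1 on GENCODE vM19 and the mouse build GRCm38. They were not filtered or normalized. The submitters' processing notes also name Seurat. Each deposited file was taken as 1 sample, and 0 gene columns belonged to no sample.

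Plasma cells were selected by the rule given above in both libraries, with Python 3.11.15, numpy 2.4.6, scipy 1.17.1 and pandas 2.3.3. T cells had at least 3 UMIs of Cd3d, Cd3e and Cd3g with at least 1 of Cd3e, at most 1 of Cd79a, Cd79b and Ms4a1 and at most 4 of the 5 plasma cell genes. UMIs were summed over cells and scaled per 1000000 UMIs (CPM) outside the immunoglobulin loci, because immunoglobulin took a large share of plasma cell RNA. Ratios had 1 UMI added, which raises the ratio of a low gene in the smaller group. Doublets were called with Scrublet (scanpy 1.11.5, scikit-image 0.26.0) and left out only in an alternative. The ratio and count steps were tested on simulated counts with counting error only. The changes put in were larger than 2-fold, so calls near 2-fold were not tested. The share of changes that had to be recovered was set after a first run. No test was made, as each condition has 1 library.

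The members and the gene lists were chosen with earlier results of these data known. The genes named are those of the rule, the constant genes, list members, Chil1, the most often called V genes, and for each comparison the 10 highest and 10 lowest ratios among genes with at least 10 UMIs in each group, apart from some that are not reported here. Gene positions are from GENCODE vM21 and promoters from RefSeq, both on GRCm38. As alternatives the mitochondrial limit was set to 10%, the upper limit on genes or the whole filter was dropped, and the other settings were doublets left out, 5 or 20 UMIs for plasma cells, other class rules, other scalings, thinned cells and a minimum of 20 UMIs. Leaving out cells with neutrophil or hepatocyte UMIs, and comparing IgA cells alone, were chosen after seeing the data.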

Additional observations from a re-analysis of the deposited data

Results flagged for a closer look

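Cells that met the plasma cell rule but not the filter on genes or mitochondrial share were not used in the comparisons. There were 12 in the HFHC pool, all above 4000 genes. Of these 8 were IgM, 1 IgG1, 1 IgG2c, 1 IgG3 and 1 had no class, they held 16479 to 59023 UMIs, and 7 of them had at least 5 UMIs of the 11 cell cycle genes (median 43.5). There was 1 in the NCD library, which had no class and held 7280 hepatocyte-marker UMIs among 42353 UMIs. Whether such cells are single cells was not tested.

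The neutrophil genes S100a8 and S100a9 went in opposite directions in the libraries when plasma cells were set against B cells. The log2 ratio of S100a8 was -1.39 in the NCD library but 1.28 in the HFHC pool, and that of S100a9 was -1.53 and 1.18. The difference between the libraries was not tested. In the pool 1 plasma cell held 201 of the neutrophil-marker UMIs, and without the cells that held neutrophil or hepatocyte UMIs both ratios of the pool changed sign. Without Scrublet doublets, of which plasma cells held 0, the ratios of the NCD library became 0.69 and 0.35, the same direction as in the pool.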

How the results depend on the processing

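Shares of classes and of immunoglobulin RNA moved by less than their interval or spread under every alternative run for them, and counts of genes moved most. With a mitochondrial limit of 10%, plasma cells were 3.78% and 16.4% of plasma and B cells in the NCD library and the pool. Plasma cells over B cells then gave 121 higher and 330 lower of 1230 genes in the NCD library. In the pool they gave 315 and 605 of 2631. Among kept cells with under 20 hepatocyte-marker UMIs, plasma cells of the pool were 0.572%. Scaled to all UMIs, plasma over B cells gave 156 higher and 1026 lower of 2732 genes, and 250 and 1990 of 4428. Thinned to 1000 UMIs, these were 170 and 301 of 1315, and 121 and 415 of 1381. With a minimum of 20 UMIs they were 1704 and 1037 of 7605, and 1211 and 1695 of 9125. With no filter on cells 929 of 2859 genes were lower in the NCD library. For the pool over the NCD library, higher and lower genes were 202 and 101 of 1386 without the upper limit on genes. They were 183 and 90 of 1437 with no filter and 13 and 9 of 87 after thinning. They were 467 and 586 of 4203 with a minimum of 20 UMIs, and 12 and 9 of 134 in IgA cells only. Leaving out plasma cells with neutrophil or hepatocyte UMIs gave 29 lower of 684 genes. Of 154 such values 123 stayed close and 31 moved. With a minimum of 20 UMIs the balance of higher and lower genes turned in the NCD library and between the libraries. At this minimum the 1 UMI added raises low genes of the smaller group, so that such counts cannot decide the balance. Fewer genes pass the minimum in thinned cells, in IgA cells and at the mitochondrial limit of 10%, so each count is read beside its total. The other causes were not tested. Of 810 values of 77 named log2 ratios, 8 changed sign. Alb (pool over NCD library) was -1.59 with no filter and -2.79 with 5 UMIs of the rule's genes, and Hmgb2 0.45 with no filter. In the pool, S100a8 and S100a9 over B cells were -4.90 and -3.45 without the cells with neutrophil or hepatocyte UMIs. In the NCD library they were 0.69 and 0.35 without Scrublet doublets, and S1pr1 was 0.43 after thinning. No paired analysis was possible because each diet has 1 library. The depth limits what 15 cells can show, and the main ratios left out genes under 100 UMIs in both groups together.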
